A study of Homo sapiens with 6 samples.

Results

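The 10 genes described here encode serum response factor (SRF) and 9 proteins of the actin cytoskeleton and the contractile machinery that are commonly listed as SRF targets: the tropomyosins TPM1, TPM2, TPM3 and TPM4, the crosslinker ACTN1, and the smooth-muscle-type proteins ACTA2, TAGLN, CNN1 and MYL9. They were taken by symbol out of 26966 named genes, and for each gene all its RefSeq transcript values were summed. Expression was measured by RNA-seq in 3 shHBO1 and 3 shCTRL libraries of UWB1.289, an established human ovarian carcinoma line without functional BRCA1. The shHBO1 cells carried a lentiviral short hairpin RNA against HBO1, the histone acetyltransferase encoded by KAT7, and the shCTRL cells a control hairpin. Both groups were transduced with 10 μg/mL polybrene and selected from 96 h onward in puromycin raised between 1 and 3 μg/mL. The question set by the design was how the shHBO1 libraries differ from the shCTRL libraries. The sources used here do not give the number of hairpins, so an effect of one hairpin sequence and an effect of HBO1 loss cannot be told apart.

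SRF is a transcription factor that binds the CArG box, and it works with 2 classes of partner. The myocardin-related factors MRTFA and MRTFB are held by monomeric actin and released when actin is built into filaments, and they direct SRF to cytoskeletal and contractile genes. The ternary complex factors, among them ELK1 and ELK4, answer to ERK signalling and direct SRF to immediate-early genes such as FOS and EGR1. In smooth muscle, ACTA2, TAGLN, CNN1 and MYL9 mark the contractile state, and in carcinoma cells tropomyosins and alpha-actinin build stress fibres.

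The libraries held 37209917 to 39716678 reads in shHBO1 and 35940400 to 39908703 reads in shCTRL. KAT7, the targeted gene, had 1008, 872 and 784 normalized counts in shHBO1 and 3616, 3952 and 3554 in shCTRL. It fell to 23.9% of the shCTRL level, with a log2 fold change of −2.07 (SE 0.11, limma adjusted p = 0.00123, n = 3 each), and it was the only one of 15173 tested genes past the adjusted threshold of 0.05. Libraries that share a replicate number deviated together, and the 2 libraries numbered 3 stood apart on the first principal component. The 14 ovarian carcinoma markers summed to 330808 to 389719 normalized counts in shHBO1 and 351470 to 411165 in shCTRL, with WT1 alone near 0 (at most 26.2). That sum is carried by keratins and EPCAM, and 7 of the 14 were lower in shHBO1 in each numbered pair, against 17.1% of all tested genes, with 0 higher in each. None passed in limma with or without the block, while DESeq2 with the block called WFDC2 (−0.43, adjusted p = 0.00434) and MSLN (−0.37, adjusted p = 0.0105) lower, both named after their values were seen. The part of these markers in the results was not tested. Of 12 smooth muscle and pericyte markers 6 were measurable. The defining smooth muscle genes MYH11, DES, LMOD1, ACTG2 and MYOCD averaged under 10 normalized counts. Of the 9 fibroblast markers DCN, PDGFRA and DPT were at 0 in every library, and COL3A1, LUM and FAP averaged under 10. The other fibroblast markers, COL1A1, COL1A2 and THY1, averaged 813, 322 and 440 normalized counts in shHBO1 and 688, 262 and 469 in shCTRL. In such bulk samples, fewer cells of a type and less RNA per cell cannot be told apart.

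CArG boxes were looked up because they are the letters by which SRF is known to recognise a gene. Only the exact form of the box was searched, which is CC, 6 bases that are each A or T, then GG. This pattern reads the same way on both strands. In RefSeq windows of GRCh38.p14 running 250 bases before to 50 bases after a gene start, 454 of 35116 windows held a box (1.29%). The table held 17 windows for 8 of the 10 genes, and 3 of these windows, 1 each for SRF, TPM4 and ACTN1, held a box. The stretches that carry them are shown 5′ to 3′ on the strand of the gene, with the boxes in capitals. They lie at chr6:43171214-43171268 on the plus strand for SRF, chr19:16067340-16067399 on the plus strand for TPM4 and chr14:68977703-68977762 on the minus strand for ACTN1.
SRF: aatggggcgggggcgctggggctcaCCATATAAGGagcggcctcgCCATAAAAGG
TPM4: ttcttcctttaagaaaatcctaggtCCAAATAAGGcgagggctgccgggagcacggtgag
ACTN1: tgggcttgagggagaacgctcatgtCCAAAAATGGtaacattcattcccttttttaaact
The 2 SRF boxes begin 30 and 10 bases before the start, the TPM4 box 173 bases before and the ACTN1 box 171 bases before. The TPM4 window belongs to the start of transcript NM_001145160, while the more abundant NM_003290 starts 8768 bases downstream, beside a window with no box. The ACTN1 window starts 1874 bases downstream of the abundant transcript NM_001102. TAGLN and MYL9 had no window in the table. For TPM1, TPM2, TPM3, ACTA2 and CNN1 the exact pattern was not found in these windows. That says nothing about SRF binding elsewhere or at boxes that differ from the pattern. The TPM1 window lies at the start of the minor transcript NM_001301289. The abundant TPM1 transcript NM_001018006 starts further upstream and had no window, so its start was not searched.

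None of the 9 genes that could be tested differed between shHBO1 and shCTRL at an adjusted p under 0.05, and TPM2 stood nearest to a difference. TPM2 was 1.2-fold higher in shHBO1 by the ratio of means, TPM1, TAGLN and ACTA2 were higher in shHBO1 in each of the 3 numbered pairs, and TPM4 was lower in each. SRF, TPM3 and ACTN1 had estimates close to 0. CNN1 had too few reads to be tested. The count of 0 of 9 comes from limma on log2(normalized count + 1) without a replicate block, a fit that called 0.00659% of all tested genes. At an unadjusted p under 0.05 it holds 1 of the 9 genes, TPM2, against 3.55% of all tested genes.

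**Figure D1:**
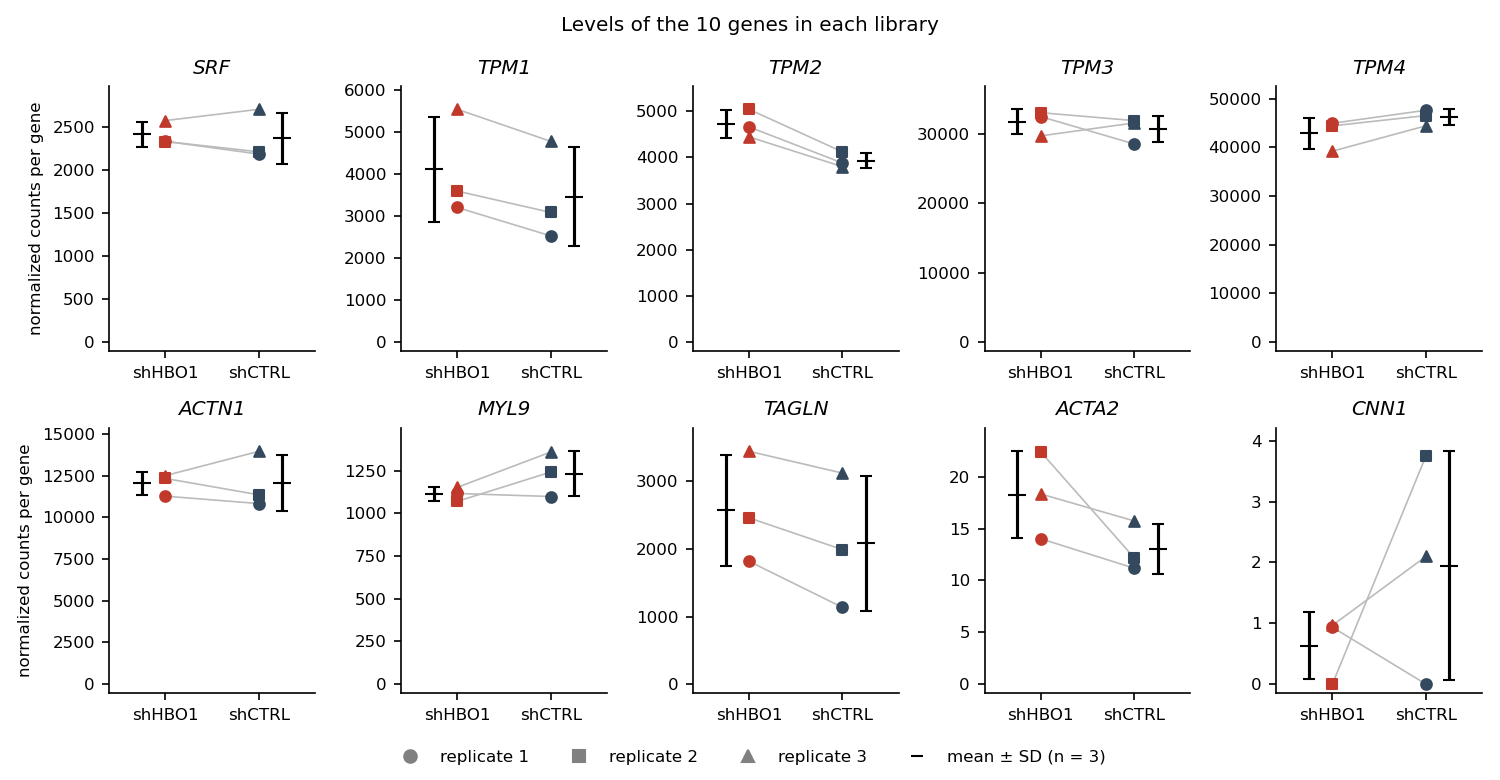
Normalized counts of the 10 genes in each library (vertical axes differ by gene and start at or just under 0), shHBO1 left of shCTRL, with lines joining libraries of the same replicate number and black bars for the mean ± SD (n = 3). The 3 TPM2 values in shHBO1 (4447 to 5044) lie above the 3 in shCTRL (3800 to 4121), and TPM1 and TAGLN are highest in number 3 and lowest in number 1 in both groups.

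SRF itself, the transcription factor, had 2334, 2332 and 2576 normalized counts in shHBO1 and 2186, 2212 and 2707 in shCTRL. The libraries numbered 3 were the highest of each group, and the groups overlapped. In limma it had a log2 fold change of 0.03 with a 95% confidence interval of −0.21 to 0.27 (SE 0.10, adjusted p = 1.00). Of its partners, 8 of 9 were tested, 7 estimates were above 0 and 1 below, the median was 0.11, and none passed the test. MRTFA, the actin-sensing coactivator, had 989, 977 and 1010 normalized counts in shHBO1 and 867, 935 and 912 in shCTRL. Its shHBO1 values all lay above its shCTRL values, as for 4.49% of all tested genes, and its log2 fold change was 0.13 (SE 0.083, limma adjusted p = 1.00). The inhibitor HOPX had 0.42 (SE 0.27), the ternary complex factor ELK4 0.15 (SE 0.16) and ELK1 −0.12 (SE 0.089), with overlapping groups. Myocardin (MYOCD), the smooth muscle and cardiac coactivator, averaged under 10 normalized counts.

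The tropomyosins are coiled-coil dimers that lie along actin filaments and set which myosins and severing proteins reach them. TPM2 had 4663, 5044 and 4447 normalized counts in shHBO1 and 3880, 4121 and 3800 in shCTRL. Every shHBO1 library was above every shCTRL library, and TPM2 was the only one of the 10 genes whose groups did not overlap in either direction, an outcome seen in 8.93% of all tested genes. The means were 4718 ± 302 in shHBO1 and 3934 ± 167 in shCTRL (SD, n = 3 each). Limma gave 0.26 on the log2 scale (SE 0.076), a 95% confidence interval of 0.09 to 0.44, an unadjusted p of 0.00918 and an adjusted p of 1.00. In the numbered pairs the log2 differences were 0.27, 0.29 and 0.23, and leaving out any 1 library gave 0.21 to 0.30. DESeq2 on recovered reads with the replicate number as a block gave 0.26 (SE 0.073, adjusted p = 0.0341), and without the block 0.26 (adjusted p = 0.697), so the call for TPM2 needed both this tool and the block.

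TPM1, whose products include the long stress fibre forms, had 3199, 3589 and 5533 normalized counts in shHBO1 and 2525, 3082 and 4772 in shCTRL. In both groups the library numbered 3 was far above the others, so the groups overlapped, while within each number shHBO1 was the higher. The pair differences were 0.34, 0.22 and 0.21 on the log2 scale. The log2 fold change was 0.26 with an SE of 0.27 in limma without the block (adjusted p = 1.00) and an SE of 0.058 with it (adjusted p = 0.182). The unblocked estimate was 0.02 without shHBO1 replicate 3 and 0.06 without shCTRL replicate 1, fits that leave 1 replicate number in 1 group only.

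TPM3 had 32527, 33089 and 29739 normalized counts in shHBO1 and 28578, 31948 and 31614 in shCTRL. These overlapped, and limma put the log2 fold change at 0.05 (SE 0.078, adjusted p = 1.00), with a 95% confidence interval of −0.13 to 0.23. TPM4, a tropomyosin of non-muscle cells, had 44961, 44433 and 39228 normalized counts in shHBO1 and 47638, 46555 and 44440 in shCTRL. It was lower in shHBO1 in each of the 3 pairs, and the groups overlapped only in that shHBO1 replicate 1 was above shCTRL replicate 3. The difference amounted to −0.11 on the log2 scale (SE 0.079, limma adjusted p = 1.00), with a 95% confidence interval of −0.29 to 0.07.

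The make-up of the tropomyosin pool is a ratio inside each library and does not depend on scaling between libraries. TPM2 supplied 5.46, 5.85 and 5.63% of all tropomyosin counts in shHBO1 and 4.70, 4.81 and 4.49% in shCTRL. TPM3 supplied 38.1, 38.4 and 37.7% in shHBO1 and 34.6, 37.3 and 37.4% in shCTRL. For both genes every shHBO1 share was above every shCTRL share, by 0.985 and 1.65 percentage points on average, with a two-sided exact permutation p of 0.1 each, the smallest that 3 against 3 libraries allow, and 0.2 after adjustment over the 4 genes. Without shCTRL replicate 1 the TPM3 difference was 0.745 points. TPM4 supplied 52.7, 51.6 and 49.7% in shHBO1 and 57.7, 54.3 and 52.5% in shCTRL, a difference of −3.52 points between the means (exact permutation p = 0.2, adjusted 0.267), or −2.10 without shCTRL replicate 1. TPM4 shares were lower in shHBO1 within each number but overlapped across numbers. TPM1 supplied 3.75, 4.17 and 7.01% in shHBO1 and 3.06, 3.60 and 5.64% in shCTRL, with overlapping shares (exact permutation p = 0.5). The 4 shares of a library sum to 100%, so they are not independent of each other. All tropomyosin counts together came to 83484 ± 3950 in shHBO1 and 84318 ± 1565 in shCTRL (SD, n = 3 each).

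**Figure D2:**
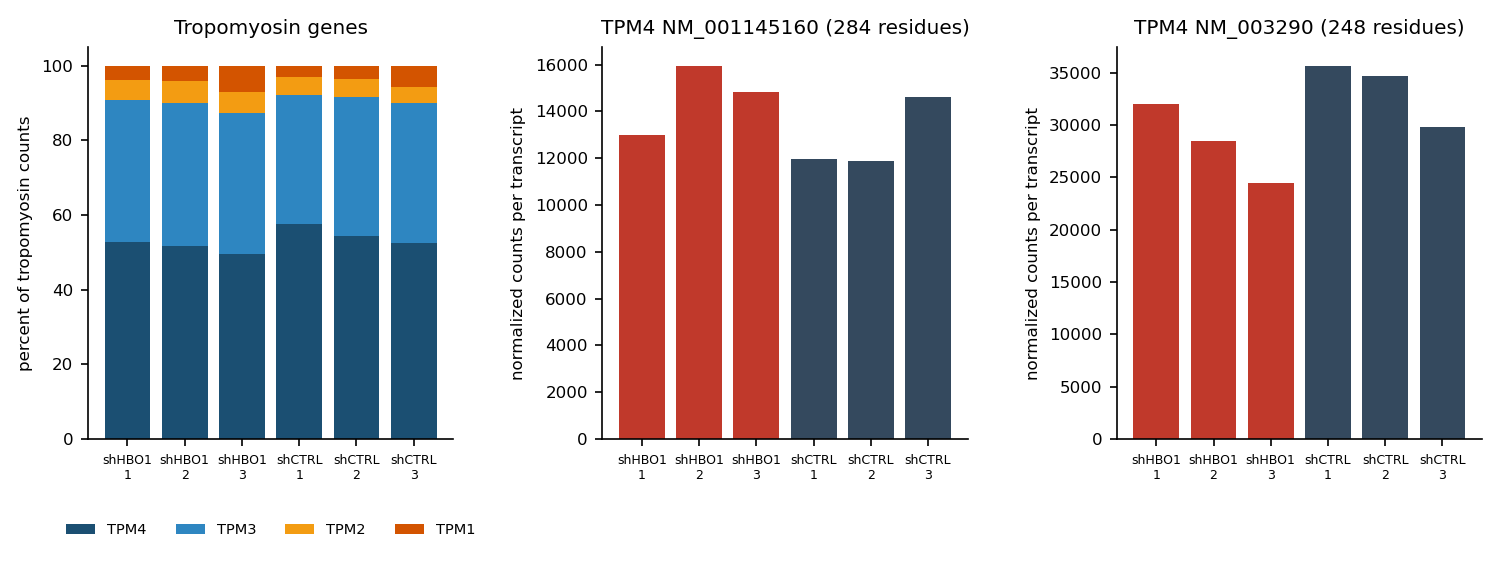
Left, share of each tropomyosin gene in all tropomyosin counts of a library (percent); middle and right, normalized counts of the 2 TPM4 transcripts in the 3 shHBO1 libraries (red) and the 3 shCTRL libraries (dark blue). TPM4 and TPM3 hold over 87% of the counts in each library, and the transcript for 248 residues is lower in shHBO1 than in the shCTRL library of the same number.

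Within TPM4 the 2 transcripts leaned opposite ways. This split was chosen for description after its values were seen. NM_001145160, which starts at the window with the CArG box and encodes 284 residues, had 13005, 15954 and 14818 normalized counts in shHBO1 and 11984, 11871 and 14624 in shCTRL. It was higher in shHBO1 in each of the 3 pairs, but shHBO1 replicate 1 lay below shCTRL replicate 3. The transcript's log2 fold change was 0.19 (SE 0.11, limma adjusted p = 1.00 over 33630 transcripts). NM_003290, which encodes 248 residues, had 31956, 28480 and 24410 normalized counts in shHBO1 and 35655, 34683 and 29816 in shCTRL. It was lower in shHBO1 in each pair, with overlap between numbers. The corresponding value was −0.24 on the log2 scale (SE 0.12, limma adjusted p = 1.00). NM_003290 made up 71.1, 64.1 and 62.2% of TPM4 in shHBO1 and 74.8, 74.5 and 67.1% in shCTRL.

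Over all 4 tropomyosin genes, 13 transcripts encode the long form of 284 or 285 residues, and these held 23.5, 27.7 and 30.5% of tropomyosin counts in shHBO1 and 21.7, 21.2 and 26.3% in shCTRL. The long share was higher in shHBO1 within each number, and the groups overlapped. Most of these counts were the TPM4 transcript NM_001145160 described above, with a mean of 14592 of 22702 in shHBO1 and 12826 of 19436 in shCTRL. A further 5 transcripts held 1.21 to 1.87% of tropomyosin counts. They were the non-coding TPM3 transcripts NR_103460 and NR_103461, and TPM1 transcripts without a known length. The split by length was not tested. In TPM2, which made long transcripts only, NM_213674 had 1407, 1414 and 1306 normalized counts in shHBO1 and 1101, 1022 and 1038 in shCTRL. The shHBO1 values were all above the shCTRL values, as the groups of 9.09% of all tested transcripts did not overlap. The log2 fold change was 0.38 (SE 0.10), with an unadjusted limma p of 0.00728 and an adjusted p of 1.00. No transcript of the 10 genes passed the test, without a block (0.00297% of all tested transcripts called) or with it (0%). At an unadjusted p under 0.05 limma held 3 of their 33 tested transcripts without the block, against 3.76% of all tested transcripts, and 9 with it, against 5.48%. The 3 were NM_213674 and the minor TPM3 transcripts NM_001278190 (−0.86) and NR_103461 (0.40). How reads were divided between transcripts that share exons is not stated in the sources used here, and reads common to related tropomyosins cannot be placed, so transcript values are less certain than gene sums.

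ACTN1, the alpha-actinin that crosslinks filaments in stress fibres and adhesions, had 11264, 12325 and 12498 normalized counts in shHBO1 and 10820, 11344 and 13955 in shCTRL. The groups overlapped throughout. Limma gave a log2 fold change of 0.0062 (SE 0.10, adjusted p = 1.00) and a 95% confidence interval of −0.24 to 0.25. MYL9, a regulatory light chain of smooth muscle and non-muscle myosin II, had 1116, 1069 and 1151 normalized counts in shHBO1 and 1098, 1241 and 1358 in shCTRL. Numbers 2 and 3 were lower in shHBO1 and number 1 was not, and the limma estimate was −0.14 on the log2 scale (SE 0.10, adjusted p = 1.00), with a 95% confidence interval of −0.38 to 0.09.

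TAGLN, the actin-binding transgelin of early smooth muscle, had 1817, 2460 and 3445 normalized counts in shHBO1 and 1136, 1990 and 3122 in shCTRL. Number 1 was lowest and number 3 highest in both groups, and each shHBO1 value was above the shCTRL value of its own number. The pair differences were 0.68, 0.31 and 0.14 on the log2 scale. The log2 fold change was 0.38 with an SE of 0.36 in limma without the block (adjusted p = 1.00) and an SE of 0.098 with it (adjusted p = 0.228). Without the block it was −0.0026 without shCTRL replicate 1 and 0.14 without shHBO1 replicate 3. Such a fit leaves 1 replicate number in 1 group only, so it mixes the difference between numbers with that between groups. DESeq2 with the replicate block gave 0.37 (SE 0.11, adjusted p = 0.0417). ACTA2, the smooth muscle alpha-actin, rested on 15, 22 and 19 reads in shHBO1 and 11, 13 and 15 reads in shCTRL. Its normalized counts were 14.0, 22.4 and 18.3 in shHBO1 and 11.2, 12.2 and 15.7 in shCTRL, overlapping by 1 library of each group. The 95% confidence interval of its log2 fold change of 0.45 ran from −0.38 to 1.27 (SE 0.36, limma adjusted p = 1.00), and at this depth a difference was not detectable. Reads shared with the other actins cannot be told apart. CNN1, calponin of smooth muscle, had 1, 0 and 1 reads in shHBO1 and 0, 4 and 2 reads in shCTRL, around the 3 reads that a count of 0 allows, and no fold is given.

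Placed on 1 scale per length, using the GENCODE 29 length of each gene's most abundant transcript, the genes spanned from abundant to nearly silent. TPM4 stood at 16082 ± 1188 normalized counts per kb in shHBO1 and 17333 ± 610 in shCTRL (SD, n = 3 each). TPM3 followed at 10152 ± 573 and TPM2 at 4634 ± 297 per kb in shHBO1, against 9809 ± 593 and 3864 ± 164 in shCTRL. The next 3 genes were ACTN1 (3183 ± 177 per kb in shHBO1, 3186 ± 444 in shCTRL), TAGLN (2774 ± 883 in shHBO1, 2244 ± 1074 in shCTRL) and TPM1 (2392 ± 728 in shHBO1, 2015 ± 681 in shCTRL). Over the 6 libraries the range of ACTN1 overlapped that of TAGLN and the range of TAGLN that of TPM1, and no other neighbours in the order overlapped. SRF averaged 574 ± 33.3 per kb in shHBO1 and 564 ± 69.8 in shCTRL, and MYL9 394 ± 14.6 in shHBO1 and 437 ± 46.2 in shCTRL. ACTA2, at 13.5 ± 3.11 per kb in shHBO1 and 9.66 ± 1.78 in shCTRL, and CNN1 below it were at the bottom of the order. Of the 4 smooth-muscle-type genes, TAGLN and MYL9 were thus expressed in these carcinoma cells, while ACTA2 and CNN1 were at trace levels.

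In TPM1 and TAGLN the difference between replicate numbers was larger than that between shHBO1 and shCTRL. TAGLN was 1.19 and TPM1 0.85 higher in number 3 than in number 1 on the log2 scale, averaged over both groups. The F test of replicate number in limma called TPM1 (adjusted p = 0.00165) and TAGLN (adjusted p = 0.00401), that is 2 of 9 genes, against 9.68% of all tested genes. Other values moved with the same libraries. The nuclear RNAs NEAT1 and MALAT1, a sign of RNA fractionation or quality, were 0.90 and 1.01 lower in number 3 than in number 1 (limma adjusted p of replicate number 0.00826 and 0.00938), while the third RNA of that list, KCNQ1OT1, was 0.11 higher (adjusted p = 0.582). NEAT1 was also higher in shHBO1 than in shCTRL in each of the 3 pairs (log2 fold change 0.26, SE 0.29, limma adjusted p = 1.00, and 0.351 with the block). The part of these RNAs in the results was not tested. Without the libraries numbered 3 the log2 fold changes were 0.28 for TPM2, 0.28 for TPM1 and 0.49 for TAGLN. With the replicate number as a block, limma called 0 of the 9 genes and 0.125% of all tested genes, or 19 genes, and at an unadjusted p under 0.05 it held 3 of the 9 (TPM1, TPM2 and TAGLN) against 11.3% of all tested genes. edgeR's quasi-likelihood test called 0 of 9 without the block (0.00659%) and 0 of 9 with it (0.125%). DESeq2 called 0 of 9 without the block (0.125%), and with it 2 of 9, TPM2 and TAGLN, both higher, against 0.975% of all tested genes called and 0.369% called higher.

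**Figure D3:**
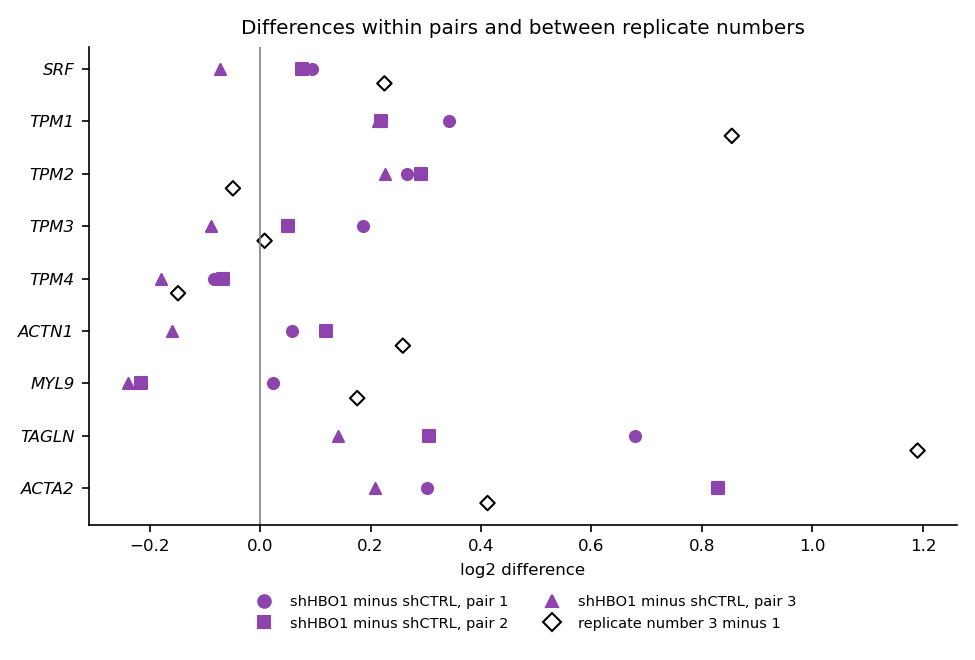
Log2 differences of the 9 tested genes: filled symbols, shHBO1 minus shCTRL within each numbered pair; open diamonds, number 3 minus number 1 averaged over both groups. TPM1, TPM2, TAGLN and ACTA2 are above 0 in each of the 3 pairs and TPM4 is below, and the diamonds of TPM1 (0.85) and TAGLN (1.19) lie beyond their pair differences.

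**Figure D4:**
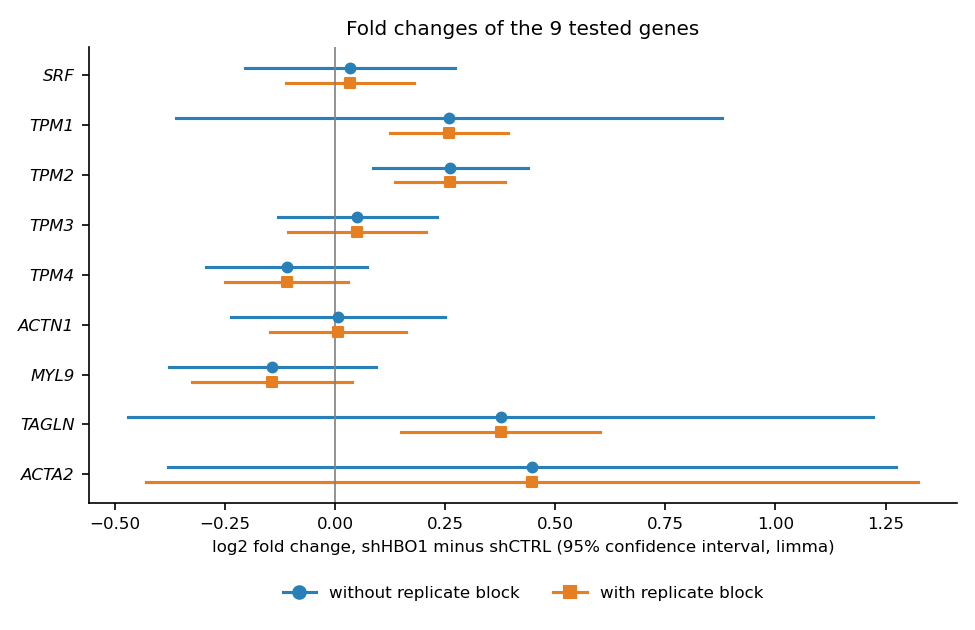
Log2 fold changes, shHBO1 minus shCTRL, with 95% confidence intervals from limma without the replicate block (blue circles) and with it (orange squares), n = 3 each. Without the block the TPM2 interval alone excludes 0; with it those of TPM1, TPM2 and TAGLN do, and none of the 9 genes passed the adjusted threshold in either fit.

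Over the 9 tested genes, 7 estimates were above 0 and 2 below, with a median of 0.05, while 50% of all 15173 tested genes were above 0 and their median was 0.00. Estimates ran from −0.14 for MYL9 to 0.45 for ACTA2. In the 3 numbered pairs 4 of 9 genes were higher each time, against 15.3% of all tested genes, and 1 of 9 was lower each time, against 17.1%. These genes share libraries and, in the case of the tropomyosins, sequence, so they are not independent of each other. Across the 6 libraries TPM1 and TAGLN had the closest profiles among the members (Pearson r = 0.95), followed by SRF with ACTN1 (0.92) and SRF with TPM1 (0.92). TPM4 ran opposite to TPM1 (−0.88). These values describe 6 libraries that share the split by replicate number.

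Among 13212 other genes, the nearest profile to SRF was that of its cofactor FHL2 (Pearson r = 1.00 over 6 libraries on the log2 scale). Nearest to the others were MANEAL for TPM1 (0.997), CSRNP2 for TPM2 (0.994), CDC40 for TPM3 (0.997), SULT1A2 for TPM4 (0.995), MDFIC for TAGLN (0.997), ZNF132 for MYL9 (0.993), TTC4 for ACTN1 (0.998) and PTPN2 for ACTA2 (0.983). The mean profile of the 9 genes was matched most closely by TMX2 (0.997), GBE1 (0.996), ASTE1 (0.995), DNAJC9 (0.995) and ZNF767P (0.994). With 6 libraries and this many candidates, high values are common and are given as a description only.

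Of 35 other cytoskeletal genes listed as MRTF-SRF targets, 34 were tested, 26 estimates were above 0 and 8 below, the median was 0.05, and none passed in limma with or without the block. LIMA1, an actin crosslinker also called EPLIN, had 1861, 1870 and 1829 normalized counts in shHBO1 and 2357, 2544 and 2257 in shCTRL. All its shHBO1 values were below its shCTRL values, an outcome seen in 4.44% of tested genes. The log2 fold change was −0.36 (SE 0.076), with an unadjusted limma p of 0.00154 and an adjusted p of 1.00, or 0.102 with the block. The tropomodulin TMOD3, which caps the pointed ends of filaments, had 0.17 (SE 0.075), the calponin CNN2 0.12 (SE 0.069) and filamin A (FLNA) 0.13 (SE 0.086). All shHBO1 values of TMOD3 and of CNN2 lay above the shCTRL values, as for 4.49% of all tested genes. In each numbered pair 8 of the 34 were higher in shHBO1, against 15.3% of all tested genes, and 2 were lower, against 17.1%. DESeq2 called LIMA1 with the replicate block (−0.36, adjusted p = 0.00683) and without it (adjusted p = 0.0477). It called the matricellular gene CCN2, named after its value was seen, with the block (0.35, adjusted p = 0.00176) and not without it (adjusted p = 1.00). The cytoplasmic actins ACTB (0.01, SE 0.14) and ACTG1 (0.04, SE 0.11) had estimates near 0, and ACTA1, ACTC1 and ACTG2 averaged under 10 normalized counts.

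Immediate-early targets of SRF with the ternary complex factors lay on the other side of 0. Of 11 listed, 8 were tested, 1 estimate was above 0 and 7 below, and the median was −0.32. EGR1, a zinc-finger factor, had 1300, 2039 and 165 normalized counts in shHBO1 and 3892, 3867 and 314 in shCTRL. Each shHBO1 value was below the shCTRL value of its number, and the libraries numbered 3 were the lowest of both groups. Its log2 fold change was −1.14, with an SE of 1.18 without the block (limma adjusted p = 1.00) and 0.13 with it (adjusted p = 0.0301). FOS, a subunit of AP-1, had 1784, 1454 and 82.0 normalized counts in shHBO1 and 3650, 3064 and 131 in shCTRL, in the same pattern. It had −0.93, with an SE of 1.52 without the block (limma adjusted p = 1.00) and 0.098 with it (adjusted p = 0.0284). FOSB (−0.78, SE 1.00), NR4A1 (−0.45, SE 0.22) and JUNB (−0.18, SE 0.19) did not pass in either fit. Between number 3 and number 1, EGR1 differed by −3.30 and FOS by −4.61 on the log2 scale (limma adjusted p of replicate number 9.96e-05 and 5.37e-06), the opposite direction to TPM1 and TAGLN.

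Of 8 partners of tropomyosin 7 were tested, 4 were above 0 and 3 below, the median was 0.02, and none passed. TMOD2, a tropomodulin, had 77.6, 77.4 and 82.0 normalized counts in shHBO1 and 34.5, 67.4 and 74.5 in shCTRL. Its groups did not overlap, as for 8.93% of all tested genes, but shCTRL replicate 1 lay far below the others (log2 fold change 0.49, SE 0.31, limma adjusted p = 1.00). The caldesmon CALD1 (0.05, SE 0.14), the capping protein CAPZA1 (−0.05, SE 0.072) and the nebulin-like NEBL (−0.19, SE 0.28) were near or below 0 with overlapping groups.

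**Figure D5:**
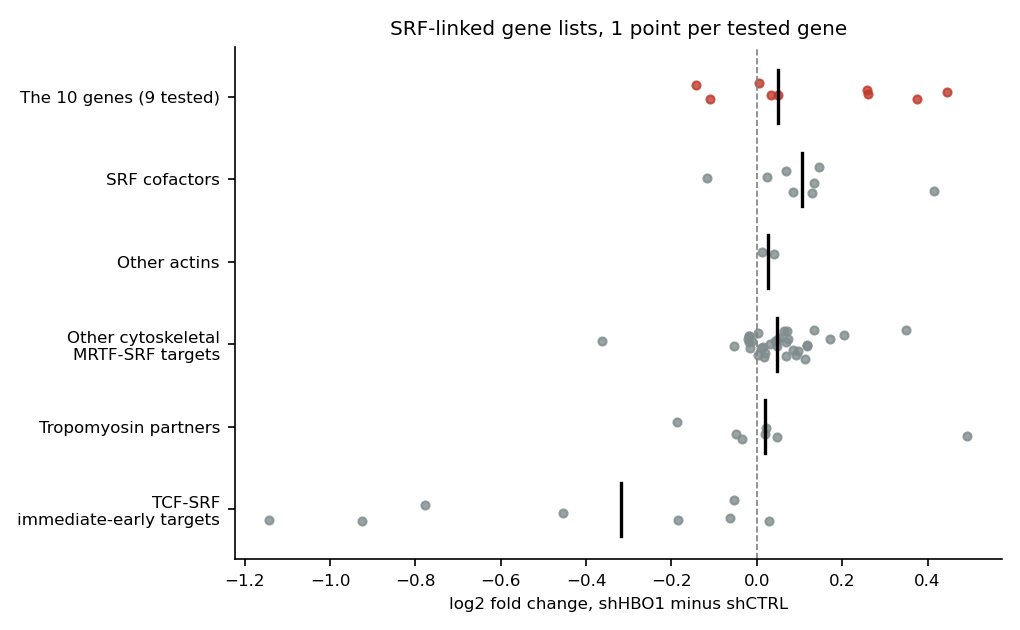
Log2 fold changes, shHBO1 minus shCTRL, from limma without the block, 1 point for each tested gene and a black bar at each list's median. The 9 tested members (red) spread from −0.14 to 0.45 around a median of 0.05, and the immediate-early targets lie mostly below 0 (median −0.32).

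Markers of other cell types were summed beside these genes. The 12 smooth muscle and pericyte markers, mostly the adhesion molecule MCAM, summed to 11260 to 11853 normalized counts in shHBO1 and 10856 to 11589 in shCTRL. The 9 fibroblast markers, of which 3 were tested, summed to 1409 to 1763 in shHBO1 and 1099 to 1666 in shCTRL, and the 9 leukocyte and endothelial markers, 7 of them tested, to 1319 to 1481 in shHBO1 and 1426 to 1846 in shCTRL. The summed ranges of shHBO1 and shCTRL overlapped in each of these 3 lists, and no member of them passed in limma with or without the block. Some single markers had larger estimates than TPM2, and all that follow were named after their values were seen. Of the 6 tested smooth muscle and pericyte markers 5 estimates were above 0 and 1 below. In each numbered pair 3 of the 6 were higher in shHBO1, against 15.3% of all tested genes, and 0 were lower, against 17.1%. The 3 were CSPG4 (0.43, SE 0.24), RGS5 (0.29, SE 0.29) and SYNM (0.24, SE 0.16). Of these 3, only CSPG4 had groups that did not overlap, as for 8.93% of all tested genes. The endothelial cadherin CDH5 was lower in shHBO1 in each pair (log2 fold change −0.46, SE 0.16, limma adjusted p = 1.00, and 0.110 with the block), and DESeq2 with the block called it (−0.47, adjusted p = 0.0130). The collagens COL1A1 (0.27, SE 0.19) and COL1A2 (0.33, SE 0.29) and the receptor KDR (0.75, SE 0.42) were higher in shHBO1 in each pair with overlapping groups, and NOTCH3 had −0.37 (SE 0.20). The part of these markers in the results was not tested.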

How the data were processed

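Per the labels, total RNA was extracted and sequenced from 6 libraries. The authors deposited 1 table of DESeq2-normalized counts, a signal divided by a size factor per library, for 58215 RefSeq transcripts. Bowtie 1.2.1.1, SAMtools, DESeq2 and hg19 are named per the submitters' processing notes, without their roles. The sources used here give neither read assignment nor strandedness nor RNA selection, so overlapping, antisense and near-identical genes cannot be separated. In each library 100% of the values came out as whole reads (within 0.01 read), which gave the reads used by edgeR and DESeq2. Transcripts were named from RefSeq GRCh38.p14 (57191) and GENCODE 29 (646), and the 378 unnamed ones (0.0920 to 0.0977% of reads) were left out. Values were summed per gene.

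Genes that averaged 10 or more normalized counts (15173) were tested with limma-trend (limma 3.58.1, R 4.3.3) on log2(normalized count + 1), with Benjamini-Hochberg adjustment over all of them and a threshold of 0.05. The pseudocount of 1 understates fold changes of low genes. Alternatives were edgeR 4.0.16 (quasi-likelihood), DESeq2 1.42.0, other filters, scalings and pseudocounts, the most abundant transcript, a replicate block, and leaving libraries out. The fits were tested on simulated data that held no difference between replicate numbers and only changes larger than those estimated for the tested members. That test therefore cannot show how the fits behave under such a difference or at the member estimates. The labels do not say that replicates are separate cultures, so the p-values reflect only how these libraries vary, and that variation may be technical. Same-numbered libraries correlated by 0.32, 0.19 and 0.48 in their deviations from the group means, each over 0.1 (shHBO1 replicate 1 with shCTRL replicate 2 gave 0.21, above the second of these), so the numbers, taken from the sample titles, were taken to pair the libraries; the labels state no shared day. Promoter windows were taken from RefSeq (GRCh38.p14) by symbol, not by hg19 coordinates. The members and lists were chosen with earlier results of these data known. The naming rule took all 10 members, from each other list of genes the 4 with the smallest p and any past the threshold with or without the block, from the marker lists counts and summed levels, and for likeness the gene with the highest Pearson r among those with a mean of at least 50. The result of 1 further list is not reported here. Figures were drawn with matplotlib 3.10.9, and the exact permutation tests of the tropomyosin shares were computed over all splits with numpy 2.4.6.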

Additional observations from a re-analysis of the deposited data

How the results depend on the processing

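The count of 0 members past the threshold held in 18 of 19 alternatives, and DESeq2 with the replicate block gave 2. The alternatives tested 9 members, except 8 at a minimum mean of 50 and 10 without a filter. The count over all genes, 1 in limma, was 19 with the replicate block in limma and in edgeR, 19 with DESeq2, and 148 with DESeq2 and the block. The KAT7 estimate ran from −2.16 to −1.89 and passed in all 19. In limma the block changed the calls of EGR1 and FOS and the counts over all genes and over all transcripts, and no other call that the report prints. In DESeq2 it changed those of TPM2, TAGLN, EGR1, FOS, CCN2, CDH5 and MSLN (TPM1 adjusted p = 0.0656, ACTA2 given none), while LIMA1 and WFDC2 passed with and without it. Paired sign changes of the tropomyosin shares gave an exact p of 0.25 each, the smallest 3 pairs allow. ACTN1 changed sign in edgeR (−0.0031) and DESeq2 (−0.00030), and SRF did with its most abundant transcript (−0.030). The cause was not tested. The leave-one-out values that follow were taken without a block, and each leaves 1 replicate number in 1 group only. With 1 library left out, log2 fold changes ran from −0.021 to 0.13 for SRF, 0.02 to 0.52 for TPM1, 0.21 to 0.30 for TPM2, −0.0014 to 0.10 for TPM3, −0.15 to −0.05 for TPM4, 0.29 to 0.61 for ACTA2, −0.0026 to 0.73 for TAGLN, −0.22 to −0.07 for MYL9 and −0.066 to 0.12 for ACTN1, and the TPM1 share difference from −0.139 (without shHBO1 replicate 3) to 1.65 points. Those of TPM2, TPM3 and TPM4 ran from 0.883 to 1.08, 0.745 to 2.13 and −4.68 to −2.10 points. SRF and ACTN1 changed sign without shHBO1 replicate 3, shCTRL replicate 1 or shCTRL replicate 2, ACTN1 also without shHBO1 replicate 2, and TPM3 and TAGLN without shCTRL replicate 1. Other scalings moved the median of all genes by less than 0.01. Depth limits ACTA2 and CNN1.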
